A study of Oreochromis niloticus with 5 samples.

Results

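A set of 4 transcripts of the fibroblast growth factor (FGF) pathway were followed in the fast muscle of Nile tilapia (Oreochromis niloticus). They were chosen by identity, with earlier results of these data known. The 4 are an intracellular FGF homologous factor, fgf12 (rna41517 of LOC100704263), a secreted ligand, fgf10a (rna17631), a receptor, fgfr4 (rna28268), and the receptor adaptor frs2 (rna15781 of LOC100695705). They are 4 of the 80416 features, in most cases transcripts, on which fragments were counted. The study sequenced rRNA-depleted RNA from the fast (white) muscle of 5 male full siblings, named M1 to M5, with 1 library per fish. The labels give an age of 5 months for all of them, whereas the methods of the study give a longer rearing time. All fish belong to 1 condition, with no treatment or mutant allele named, so no groups could be compared, and the spread given is that between these 5 siblings.

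Secreted FGFs bind receptor tyrosine kinases at the cell surface with heparan sulphate as a cofactor. The activated receptor phosphorylates the adaptor FRS2, which recruits GRB2 and the phosphatase SHP2 (PTPN11) and so leads to RAS and the MAP kinase cascade, and Sprouty, SPRED and DUSP6 proteins act back on that cascade as inhibitors. The homologous factors, to which FGF12 belongs, resemble FGFs in sequence but have no signal peptide, stay in the cell and are best known as partners of voltage-gated sodium channels. In vertebrate muscle the pathway is known for its part in the growth and differentiation of muscle precursors.

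The 5 libraries held between 26750559 (M1) and 90337019 (M2) counts, with a median of 36731226. In these totals a fragment counts for each feature that it matched. The study reports a lower overall alignment rate and a lower share of assigned fragments for M1 than for the other fish. The part of this difference in the levels of M1 was not tested. Counts were divided by the size factor of each library to give normalized counts, in which 1 fragment is worth 0.454 in M2 and 1.65 in M1. Markers of fast muscle summed to between 133001 and 147376 TPM (a level per length: fragments per base of transcript, scaled to the same total in each library), and 10 of the 11 genes on that list had a count in every fish. Slow muscle markers summed to 18.4 TPM in M1 and to between 3.11 and 4.98 TPM in the other fish, with mybpc1, a myosin binding protein of slow fibres, at 14.0 TPM in M1. Fibroblast markers summed to 220 to 531 TPM, endothelium to 17.1 to 26.1 TPM and liver to 0.0572 to 0.296 TPM, each highest in M1. Nerve and Schwann cell markers summed to 135 to 199 TPM and satellite cells to 2.76 to 4.71 TPM, both highest in M3. For adipocytes the sums were 113 to 190 TPM and for red blood cells 2.76 to 6.0 TPM, both highest in M5. The sums cover only the markers whose symbols were matched, so they are not comparable between lists. No haemoglobin gene was matched for red blood cells. For liver, apoa1, tf, serpina1 and ttr were not matched, and for adipocytes, adipoq and plin1 were not. The low sums of these lists therefore do not show that such cells were absent. In bulk tissue, fewer cells of a type and less RNA per cell cannot be told apart.

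All 4 transcripts had at least 1 count in every fish. The same held for 47.5% of all listed features. With a minimum of 10 counts per fish, fgf12, fgfr4 and frs2 remained, against 34.9% of all features, and fgf10a reached 10 counts in 0 of 5 fish. Per base of transcript the order was fgf12, frs2, fgfr4 and fgf10a, and the ranges of neighbours in that order did not overlap.

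**Figure D1:**
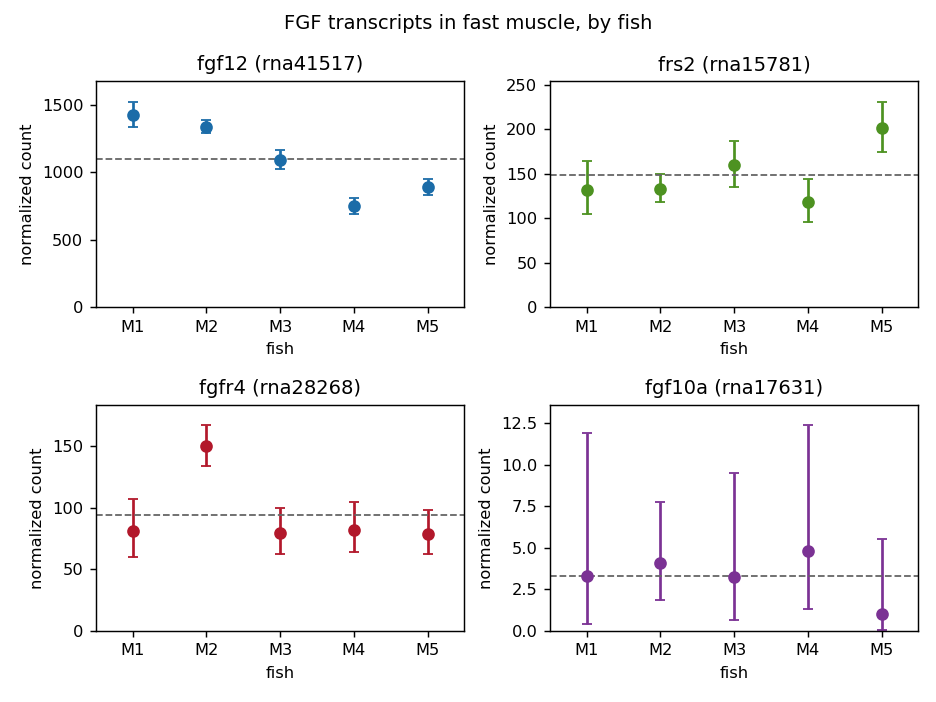
Normalized counts (vertical axis, linear, from 0) of fgf12, frs2, fgfr4 and fgf10a in each fish (horizontal axis), with exact Poisson 95% intervals of the count as bars and the mean of the 5 fish as a dashed line. M1 and M2 were highest for fgf12, M5 for frs2 and M2 for fgfr4, whereas the intervals of fgf10a overlapped among all fish.

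The intracellular factor fgf12 was the most abundant of these transcripts. It lies on linkage group 14 of the assembly O_niloticus_UMD_NMBU, from 37682588 to 37720464 on the plus strand, with 5 exons and 6127 bases. From M1 through M5 the raw counts of fgf12 were 867, 2950, 1011, 622 and 896, which correspond to normalized counts of 1427, 1339, 1095, 752 and 893. M1 and M2 were high and M4 was low, and the 95% Poisson interval of M1, 1334 to 1526, did not overlap that of M4, 694 to 813. The mean was 1101 ± 287 normalized counts (SD, n = 5), or 10.5 ± 2.54 TPM, and the highest fish had 1.90 times the count of the lowest. On the scale log2(normalized count + 1), the SD over fish was 0.39, against 0.05 from counting alone. Among 3699 transcripts with a mean within 2-fold of that of fgf12, the median SD was 0.27 and 25.6% had a larger one.

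The 2 fish with the highest fgf12 did not share a single marker pattern. M1 had the highest summed levels of slow muscle, fibroblast, endothelium and liver markers. Most of its slow muscle sum was mybpc1 alone, at 14.0 of 18.4 TPM. Of the other slow muscle genes, tnnc1a and, marginally, tnnt1 were highest in M1, whereas atp2a2a, atp2a2b and tnni1a were lowest there. M2 had 3.17 TPM of slow muscle markers and 286 TPM of fibroblast markers, inside the range of the other fish. For endothelium, M2 was the lowest, at 17.1 TPM, against 26.1 TPM in M1. The part of these markers in the level of fgf12 was not tested. The nerve and Schwann cell list, which bears on a factor known from neurons, summed to 138 TPM in M1, 178 TPM in M2, 199 TPM in M3, 182 TPM in M4 and 135 TPM in M5, of which pmp22b, a myelin gene, held 73.9, 95.8, 135, 115 and 53.6 TPM. Without pmp22b, left out after its values were seen, the sums were 64.2, 82.2, 63.3, 67.0 and 81.9 TPM, with M2 the highest and M3 the lowest, so the order of fish by these markers rests on that gene. The part of nerve markers in the level of fgf12 was not tested. Of the 14 genes on that list 8 were counted in every fish: mpz, mbpa, plp1a, plp1b, sox10, s100b, pmp22a and pmp22b. These are markers of myelin or Schwann cells. The markers of neurons, nefla, neflb, nefma, snap25a, stmn2a and stmn2b, had no more than 4 counts in any fish. Among them, the neurofilament gene nefma had no count in any fish. The sums of the list thus hold almost nothing from the markers of neurons. Their largest part, pmp22b, was lowest in M5, where mpz and mbpa were highest, at 36.6 and 29.1 TPM.

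Nearly all of the fgf12 count comes from exons that its listed transcripts share. The gene has 4 listed transcripts, with different first exons and the same 4 downstream exons, which together share 5652 bases. Their mean normalized counts were 1101 (rna41517), 1092 (rna41516), 1092 (rna41518) and 1093 (rna41519), because a fragment on a shared exon was counted for each of them. The count of rna41517 exceeded that of rna41516, the lowest, by 9, 17, 10, 5 and 6 fragments in M1 to M5, or between 0.58% and 1.04% of its count. For rna41518 and rna41519 the excess was no more than 1 fragment in any fish. Only fragments on an own first exon alone can tell the transcripts apart, and that of rna41518 has only 147 bases. As a difference from rna41516, the excess also cannot show fragments of rna41516 alone. The counts therefore do not show which of the transcripts was in use. The own first exon of rna41517, of 475 bases, makes up 7.75% of its length, and its last exon of 5238 bases makes up 85.5%. The values given for fgf12 are thus in the main those of the shared 3′ part of the gene.

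**Figure D2:**
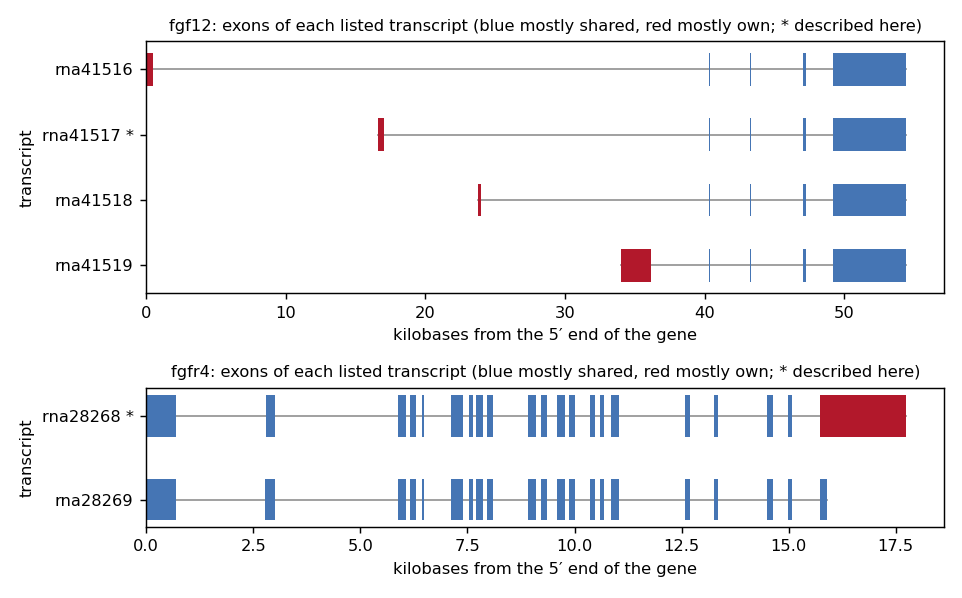
Exons (boxes) of the listed transcripts of fgf12 (upper panel) and fgfr4 (lower panel) against the distance in kilobases from the 5′ end of the gene, with exons mostly shared with another transcript in blue and exons mostly of 1 transcript alone in red. The 4 fgf12 transcripts differ in their first exon and share the last, of 5238 bases, whereas the 2 fgfr4 transcripts differ mainly in the length of the last exon.

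The secreted ligand fgf10a was at the edge of detection. In mammals FGF10 is a ligand of the epithelial form of FGFR2 and is required for limb and lung outgrowth. The transcript lies on linkage group 7, from 23468001 to 23488467 on the plus strand, with 4 exons and 1527 bases. RefSeq names its gene fgf10a, while the transcript list of the study carries the name fgf5 for it. M1 had 2 fragments, M2 had 9, M3 had 3, M4 had 4 and M5 had 1, which makes 19 in all. Normalized, these were 3.29, 4.09, 3.25, 4.83 and 0.997, with a mean of 3.29 ± 1.44 (SD, n = 5) or 0.126 ± 0.054 TPM. M5 was the lowest and M4 the highest, yet the intervals of these fish, 0.0252 to 5.55 and 1.32 to 12.4 normalized counts, overlapped widely. The SD over fish on the log2 scale was 0.60, below the 0.72 that counting alone would give, so no difference between fish was detectable at this depth. Without M5 the SD was 0.22. Of 6978 transcripts of similar mean, 77.7% had a larger SD than fgf10a, with a median of 0.90. Among the 3666 of them that, like fgf10a, had a count in every fish, 57.6% had a larger SD and the median was 0.64.

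The 2 other genes whose names touch on this transcript had no fragment at all. The paralog fgf10b (rna34683) and the RefSeq gene fgf5 (rna35319) had a count of 0 in every library, which allows up to 3 counts in each, or between 1.36 normalized counts in M2 and 4.94 in M1. Under either name, the ligand counted in every fish was thus rna17631 alone, at a level where 1 library more or less changes its spread.

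The receptor fgfr4 was counted at a moderate level in every fish. In mammals FGFR4 is best known from the liver, where it acts with beta-Klotho, and from myogenic cells. The transcript lies on linkage group 10, from 23700824 to 23718572 on the minus strand, with 21 exons and 5513 bases. Its raw counts in M1 to M5 were 49, 330, 73, 68 and 79. After normalization M2 stood at 150, whereas M1, M3, M4 and M5 lay close together at 80.7, 79.1, 82.2 and 78.7. The mean was 94.1 ± 31.2 normalized counts (SD, n = 5), or 0.999 ± 0.333 TPM, and the SD on the log2 scale was 0.40, against 0.15 from counting alone. Of 10660 transcripts of similar mean, 33.3% had a larger SD, and their median was 0.33.

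Most of the measured spread of fgfr4 came from a single fish. M2 had 1.82 times the normalized count of the next fish, M4, and its 95% Poisson interval of 134 to 167 lay above that of M4, 63.8 to 104. Without M2 the mean was 80.2 normalized counts and the SD on the log2 scale was 0.028, far under the value with all 5 fish. It was also under the 0.15 that counting alone would give over all 5 fish. The other fish thus lay closer together than their counts can resolve, which does not show that their levels were equal. M2 was also the library with the most counts, and the part of depth in its level was not tested. Satellite cell markers, which include the precursor gene pax7a, summed to 4.03 TPM in M2, between 4.71 TPM in M3 and 3.16 TPM in M1. The genes of this list differed in their highest fish. In M1 to M5, pax7a had 11.5, 26.3, 34.7, 13.3 and 11 normalized counts, and pax3a had 1 count in M2 alone. The more abundant myf5 had 69.1, 63.1, 75.8, 39.9 and 36.9 normalized counts, highest in M3. For cdh15 they were 69.1, 106, 101, 87.0 and 87.7, highest in M2 like fgfr4, and met was highest in M4, at 19.3. The part of satellite cells in the level of fgfr4 was not tested. The liver list stood at 0.140 TPM in M2, inside the range of the other fish, with fgb and vtnb at 0 counts. Its other genes had few counts: 8, 8, 5, 2 and 10 in M1 to M5 for fga, and 0, 5, 1, 0 and 2 for vtna. By normalized count vtna was highest in M2, at 2.27, and fga in M1, at 13.2.

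The higher level of M2 was present in both parts of the fgfr4 transcript. A shorter listed transcript, rna28269, of 3666 bases, has only 4 bases that rna28268 lacks, while 1851 bases, or 33.6% of the length of rna28268, belong to rna28268 alone and lie in its last exon. The shorter transcript had 32.9, 65.8, 35.8, 32.6 and 23.9 normalized counts in M1 to M5, with a mean of 38.2 ± 16.1. Subtracting its counts from those of rna28268 left 47.7, 84.0, 43.3, 49.5 and 54.8 normalized counts for fragments on the 3′ bases of rna28268 alone, with a mean of 55.9 ± 16.2. M2 was the highest in both parts. M5 was the lowest on the shared bases, yet the next after M2 on the 3′ bases. The 3′ bases held 60.0% ± 5.83 of the fgfr4 fragments (SD, n = 5), between 54.8% and 69.6%, and per base they had 3.07 ± 0.857 times as many fragments as the rest of the transcript. All 5 fish had more fragments per base there, with the lowest ratio at 2.4.

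**Figure D3:**
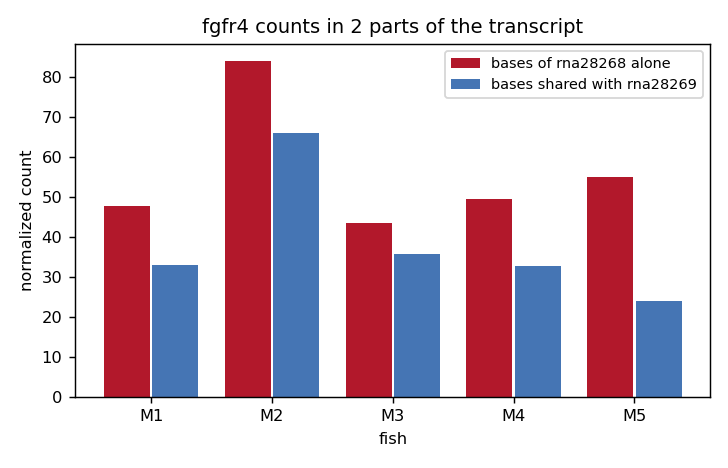
Normalized counts (vertical axis, from 0) of fgfr4 in each fish, for fragments on the bases of rna28268 alone (red) and for the bases it shares with rna28269 (blue), without replicates per fish. M2 was highest for both, at 84.0 and 65.8, and the red bar was above the blue bar in all 5 fish.

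The adaptor frs2 was counted in every fish at a level between those of fgf12 and fgfr4. It has 1 listed transcript, on linkage group 7 from 2086713 to 2096160 on the plus strand, with 7 exons and 2461 bases. For frs2 the raw counts in M1 to M5 were 80, 293, 147, 98 and 202, or 132, 133, 159, 118 and 201 after normalization. M5 was the highest, with a Poisson interval of 175 to 231 that lay above that of M4, 96.1 to 144, and overlapped that of M3, 135 to 187. The mean was 149 ± 32.9 normalized counts (SD, n = 5), or 3.56 ± 0.899 TPM. On the log2 scale the SD was 0.30, against 0.12 from counting alone, and 49.2% of 10732 transcripts of similar mean had a larger one, with a median of 0.30. Without M5 the SD of frs2 was 0.18. The next gene by coordinate, nup160, a nuclear pore subunit, lies 793 bases beyond the end of frs2 and averaged 869 normalized counts. However, no exonic base of any of the 4 transcripts was shared with a listed feature of another gene on either strand.

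**Figure D4:**
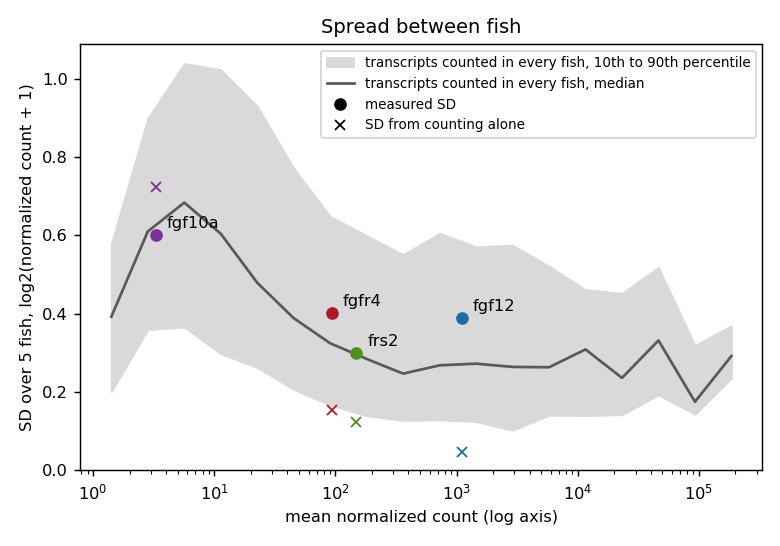
SD over 5 fish of log2(normalized count + 1) (vertical axis) against the mean normalized count (horizontal log axis) for fgf10a, fgfr4, frs2 and fgf12 (dots), the SD from counting alone (crosses), and the median (line) and 10th to 90th percentile (grey) of the transcripts with a count in every fish, by mean. The dots of fgf12, fgfr4 and frs2 lie above their crosses, that of fgf10a below its cross, and all 4 lie inside the grey band.

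The spread of these transcripts was therefore of the size found in other transcripts of the same level. Over the 28066 features that reached 10 counts in each library, the median SD on the log2 scale was 0.31. By normalized count the highest fish differed between fgf12 (M1), fgf10a (M4), fgfr4 (M2) and frs2 (M5), while by TPM M2 was marginally above M1 for fgf12.

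Levels of different genes were compared per base of transcript within each fish. By fish, from M1 to M5, fgf12 stood at 12.7, 12.8, 11.3, 7.03 and 8.70 TPM and frs2 at 2.91, 3.16, 4.07, 2.76 and 4.88 TPM. The gap was smallest in M5, where frs2 was at its highest, and no fgf12 value fell inside the range of frs2. The fgf12 transcript had 2.94 times the TPM of frs2 (geometric mean), a mean log2 ratio of 1.56 ± 0.53 (SD, n = 5), with all 5 fish in the same direction. It stood above fgfr4 by a log2 ratio of 3.41 ± 0.42, or 10.6 times, and above fgf10a by 6.52 ± 0.91, or 91.5 times. The adaptor frs2 exceeded the receptor fgfr4 by 1.85 ± 0.57 on the log2 scale, or 3.6 times, again in 5 of 5 fish. Without division by length this log2 ratio was 0.69 and held in 4 of 5 fish, since fgfr4 had 150 and frs2 133 normalized counts in M2 (exact sign-flip permutation p = 0.125). It exceeded fgf10a by 4.96 ± 1.18, and fgfr4 exceeded fgf10a by 3.11 ± 0.85. For each of the 6 pairs the exact two-sided sign-flip permutation test gave p = 0.063, or 0.063 after Benjamini-Hochberg adjustment over the 6 pairs, which is the smallest value that 5 fish allow, so no pair could pass 0.05. Since fgf12 values include fragments shared by its 4 transcripts, its TPM stands for the gene more than for rna41517.

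The transcripts were then set beside the rest of the pathway, with each gene given by its most abundant transcript. In all, 78 FGF pathway genes were matched, of which 52 had at least 1 count in every fish, 37 had at least 10 and 14 had none. Over all 42624 genes 38% had at least 1 count in every fish and 27.5% had at least 10, while 17113 had none. The median level was 0.233 TPM over the pathway genes and 0.0145 TPM over all genes.

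**Figure D5:**
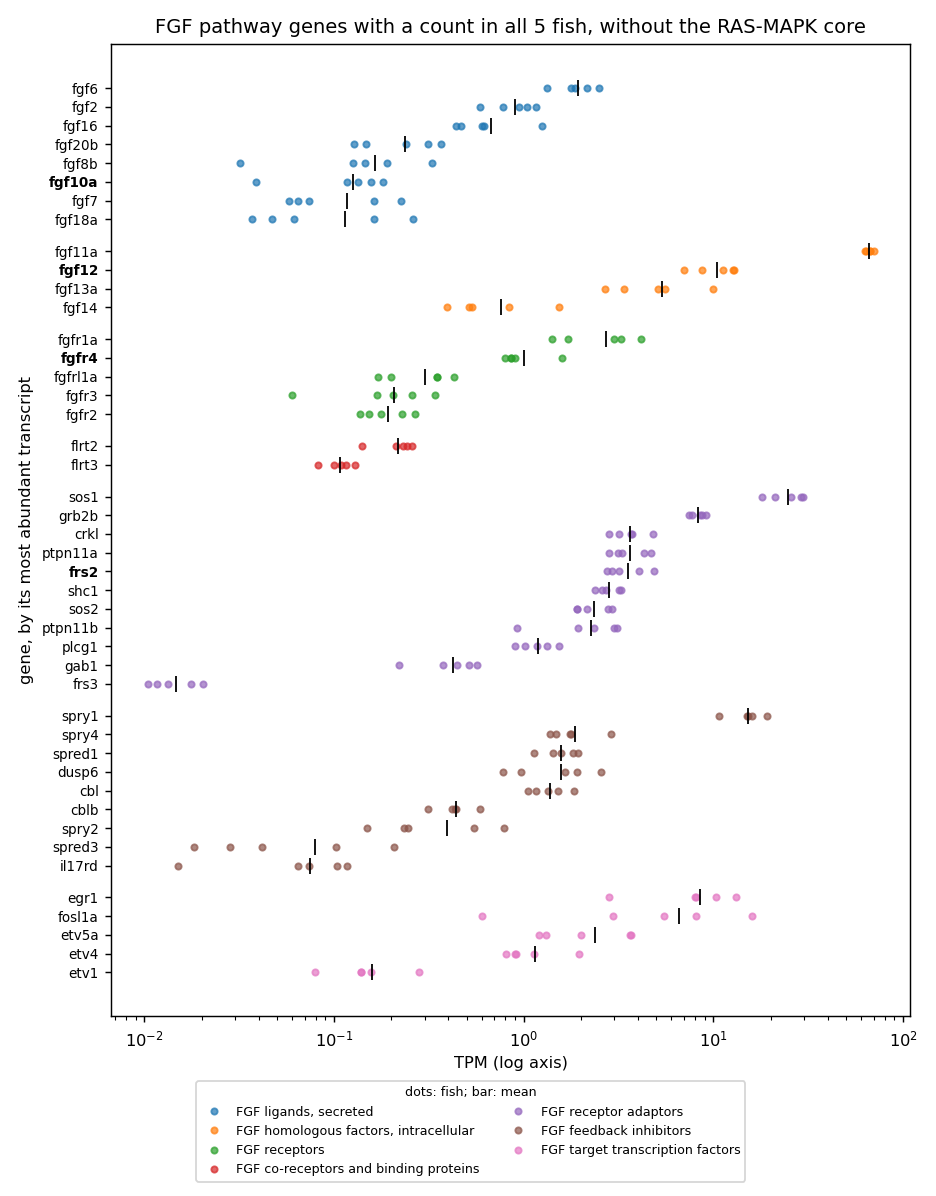
TPM (horizontal log axis) in each fish (dots) and the mean of the 5 fish (bars) for the FGF pathway genes counted in every fish apart from the RAS-MAPK core, grouped and coloured by role, with fgf10a, fgf12, fgfr4 and frs2 in bold. The homologous factor fgf11a, at 66.0 TPM, is to the right of all others, and the means of the secreted ligands other than fgf6 lie under 1 TPM.

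Secreted ligands had a median of 0.0204 TPM, the lowest of any role apart from the co-receptors. Of 22 genes, 8 were counted in every fish, 2 had at least 10 counts in every fish and 7 had no count (fgf3, fgf5, fgf10b, fgf19, fgf21, fgf22 and an fgf4-like gene). Over all 42624 genes, 38% were counted in every fish, 27.5% had at least 10 counts and 17113 had no count. Summed, the ligands reached between 3.86 and 5.41 TPM. The highest was fgf6 (rna20963 of LOC100698056), whose mammalian counterpart is expressed in muscle, at 1.92 ± 0.434 TPM (SD, n = 5), with 183, 225, 112, 201 and 158 normalized counts in M1 to M5. M2 was its highest fish and M3 its lowest. Next came fgf2 at 0.901 ± 0.225 TPM, an uncertain value because 236 of its 1377 bases are shared with bbs12 on the same strand and 514 with nudt6 on the other. For fgf16 the level was 0.675 ± 0.334 TPM, with 44.7 normalized counts in M4 and between 15.0 and 23.0 in the other fish. The ligand fgf10a was the sixth of the 8 ligands counted in every fish, and fgf8a (rna38285) had no more than 1 count in any fish.

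The intracellular homologous factors held the highest levels of any FGF name. They summed to between 75.2 and 89.9 TPM, above the summed ligands in all 5 fish. Of 7 genes, 4 had at least 10 counts in every fish, against 27.5% of all genes. Most of this was fgf11a, with 12131, 10660, 10503, 10748 and 11534 normalized counts in M1 to M5, or 66.0 ± 3.00 TPM (SD, n = 5). Its values were close together, with an SD on the log2 scale of 0.089, against 0.39 for fgf12, the next most abundant. The level of fgf13a was 5.33 ± 2.85 TPM, with 300, 134, 465, 260 and 166 normalized counts, and that of fgf14 was 0.763 ± 0.462 TPM, with 46.1, 31.8, 115, 42.3 and 65.8. Both were highest in M3 and lowest in M2. Nerve and Schwann cell markers summed to 199 TPM in M3 and 178 TPM in M2 with pmp22b, and to 63.3 TPM in M3 and 82.2 TPM in M2 without it, and their part was not tested. A further 2 genes, fgf12a and fgf13b, had no count, and fgf11b had a count in 2 of 5 fish.

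All 5 receptor genes matched by symbol were counted in every fish, against 38% of all genes. By mean TPM fgfr4 was the second of these 5. These 5 receptors summed to between 2.98 and 5.68 TPM. The most abundant of the 5 was fgfr1a, the main FGF receptor of many mesenchymal tissues, at 2.71 ± 1.13 TPM (SD, n = 5). By fish, fgfr1a stood at 1.41, 3.26, 1.72, 3.01 and 4.13 TPM in M1 to M5, against 0.795, 1.59, 0.903, 0.854 and 0.852 TPM for fgfr4. The fgfr1a value was the higher one in every fish, and M5, its highest fish, was not the highest for fgfr4. The decoy-like fgfrl1a, which lacks a kinase domain, averaged 0.300 ± 0.110 TPM, fgfr3 0.206 ± 0.104 TPM and fgfr2 0.192 ± 0.0544 TPM. All 4 genes other than fgfr3 had at least 10 counts in every fish, against 27.5% of all genes. The gene fgfr3 fell short of that in M5, with 6.98 normalized counts. A further 3 genes with LOC symbols, which are not in the counts, sums and order above, carry receptor names in the transcript list of the study. Of those named receptor 1-A, LOC100707841 averaged 3.12 ± 0.153 TPM (SD, n = 5), above fgfr4 in every fish, and LOC100708380 had no count. The mean of LOC100707841 was also above that of fgfr1a. It was the higher of the pair in M1, M3 and M4, and fgfr1a in M2 and M5. The receptor-like LOC100696824 averaged 0.389 ± 0.144 TPM, below fgfr4 in every fish.

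Co-receptors and binding proteins were low at this depth, with a median of 0.000811 TPM, against 0.0145 TPM over all genes. Of 10 genes, 2 were counted in every fish and 5 had no count, among them the FGF binding proteins fgfbp1a, fgfbp2a, fgfbp2b and fgfbp3. Over all 42624 genes, 38% were counted in every fish and 17113 had no count. The membrane proteins flrt2 and flrt3 averaged 0.217 ± 0.045 and 0.107 ± 0.017 TPM, and flrt1b was the third at 0.0138 TPM. The Klotho genes kl and klb, co-receptors of the endocrine FGFs, had 1 count in 1 fish each, beside a count of 0 for the endocrine ligands fgf19 and fgf21. The other endocrine ligand, fgf23, had counts of 1, 4, 1, 6 and 0 in M1 to M5.

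Adaptors and kinases of the cascade were all counted in every fish. Each of the 11 adaptor genes had a count in every fish and 10 had at least 10, with a sum of 43.4 to 58.0 TPM. Over all 42624 genes these shares were 38% and 27.5%. The nucleotide exchange factor sos1 led with 24.6 ± 5.06 TPM (SD, n = 5), followed by grb2b, which links receptors to it, at 8.27 ± 0.681 TPM and by crkl at 3.64 ± 0.742 TPM, of which 1400 bases lie opposite a gene on the other strand. The phosphatase gene ptpn11a had 3.64 ± 0.801 TPM, and frs2, at 3.56 ± 0.899 TPM, was the fifth. These last 3 differed by less than their SD. The paralogous adaptor frs3 was the only adaptor that did not reach 10 counts in each fish, at 0.0146 TPM, so frs2 held nearly all of the counted FRS transcript. In the RAS-MAPK core, 8 of 8 genes had a count in every fish and 6 had at least 10, against the same 38% and 27.5%. They summed to 36.3 to 46.1 TPM. The kinases map2k2b and raf1a were highest, at 13.3 ± 1.93 and 9.30 ± 0.469 TPM (SD, n = 5).

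Feedback inhibitors and target transcription factors, which mark activity of the cascade in many tissues, were counted in most cases. Over all 42624 genes, 38% were counted in every fish and 27.5% had at least 10 counts. Of 10 inhibitor genes 9 were counted in every fish and 6 had at least 10 counts, with a sum of 16.9 to 27.4 TPM. The most abundant, spry1, had 15.2 ± 3.04 TPM (SD, n = 5), followed by spry4 at 1.85 ± 0.60 TPM and spred1 at 1.58 ± 0.318 TPM. The inhibitor spry4 resembled fgfr4 in that M2 stood alone, at 239 normalized counts, while the other 4 fish lay between 121 and 149. All 5 target genes were counted in every fish and 4 had at least 10 counts, with a sum of 5.99 TPM in M5 and 34.0 TPM in M4. The immediate early gene egr1 led with 8.47 ± 3.81 TPM, then fosl1a with 6.61 ± 5.95 TPM and etv5a with 2.36 ± 1.22 TPM. For fosl1a, normalized counts were 207, 285, 96.4, 578 and 20.9 in M1 to M5, an SD on the log2 scale of 1.80. The fish with the most fosl1a, M4, had the lowest fgf12 and frs2, and M5, with the least fosl1a, had the highest frs2. However, fgf12 was also low in M5, at 893 normalized counts. Like fosl1a, fgf10a was highest in M4 and lowest in M5, at 4.83 and 0.997 normalized counts with wide intervals. No relation to fosl1a was tested.

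The profile over fish of 3 of the 4 transcripts was compared with those of other genes, over 10371 transcripts of named genes with at least 100 counts in every fish. Likeness was the root mean square difference over the 5 fish of log2 values centred on their mean, so 0 is an identical profile. Nearest to fgf12 were prom2 at 0.078, plpp3 at 0.090 and phactr2 at 0.095, against a median of 0.41 over all candidates. Nearest to fgfr4 were hjv, a bone morphogenetic protein co-receptor, at 0.14, kdm2ba at 0.14 and mstnb, a myostatin paralog, at 0.14, against a median of 0.42. Chosen for a profile like that of fgfr4, these genes had M2 as their highest fish, with 747 normalized counts for hjv and 823 for mstnb. Nearest to frs2 were sin3aa at 0.043, khdc4 at 0.045 and tmub2 at 0.046, against a median of 0.33, and M5 was the highest fish for all 3. A shared highest fish follows from this choice by profile and is no separate result. With 5 fish and this many candidates, the values are descriptions, and fgf10a was left out because of its low counts.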

How the data were processed

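Per the labels, total RNA of fast muscle was depleted of rRNA and made into directional libraries. The authors aligned the trimmed reads with HISAT2 2.1.0 and deposited raw counts of fragments per listed feature from featureCounts (Subread), in which a fragment could match more than 1 feature. The strand setting of the counting is not given in the sources used here. No sample column of the table was left unused (0).

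Counts were divided by DESeq2 1.42.0 median-of-ratios size factors (R 4.3.3, design without groups). TPM was computed from the counts and the deposited length, over all features, so fragments shared by isoforms enter more than 1 time. Features were assigned to genes by coordinates in the RefSeq table of O_niloticus_UMD_NMBU: 79924 of 80416 matched 1 of 42624 genes and 492 matched none. The remaining work was done with pandas 2.3.3, numpy 2.4.6 and scipy 1.17.1 under Python 3.11.15, with plots from matplotlib 3.10.9, and the scripts were tested on simulated data.

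Intervals are exact Poisson 95% intervals of a count, and a count of 0 allows up to 3 counts. Since PCR copies of 1 molecule carry no identifier here and are not independent, both cover counting error only. Exact sign-flip permutation tests paired values by fish. Pathway genes came from 8 lists by role, matched on RefSeq symbols with their paralog letters, and fgf12, frs2, fgf6 and the fgf4-like gene were added through the transcript names of the study. Marker lists covered the 9 tissues or cell types given with the results. The genes named are the 4 transcripts, the isoforms of their genes, the FGF genes named in the study's section on growth, the 3 highest of each list by mean TPM, and the 3 nearest profiles. A gene that this rule also names is not reported here. Other genes were named after their values were seen. The 4 transcripts and the lists were chosen with earlier results of these data known.

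The alternatives tried were edgeR 4.0.16 TMM factors, library totals, regularized log means, a pseudocount of 0.1 in place of 1, a minimum of 10 counts, scaling to the smallest library, levels without division by length, the highest transcript per gene, any transcript of a gene, and leaving out each fish.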

Additional observations from a re-analysis of the deposited data

Results flagged for a closer look

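For each of 38 sets of 5 fish values, the gap between the most distant fish and its neighbour was divided by the whole range and set against Dixon's 95% critical value of 0.71. The sets were those of the 4 transcripts and of the pathway genes with at least 10 counts in every fish. In all, 4 sets passed, where about 1 in 20, or 1.9 here, would pass by chance if the values were normally distributed. Normalized counts need not be so distributed, and the sets share the same 5 libraries. The value of 1.9 is thus a rough guide and not a test. In fgfr4, M2 had 149.783 normalized counts, against 82.2 in the next fish. In the inhibitor spry4, M2 had 239.2 normalized counts, against 149 in the next fish. In the target gene etv4, M2 had 68.9911 normalized counts, against 38.9 in the next fish. In the ligand fgf16, M4 had 44.706 normalized counts, against 23.0 in the next fish. Of the 4, 3 thus concern M2, the most deeply sequenced library, and the part of depth was not tested.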

How the results depend on the processing

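Under the other alternatives, all 43 recomputed values kept to the limits set for a change. These were 1 SD for a level and 1.5 times for a count or a spread. For a ratio between transcripts they were the same direction and the same side of the 0.05 threshold of the exact permutation test. With 5 or 4 fish that test cannot give a p under 0.05, so no ratio could change side. Ratios were thus held to their direction alone, whatever the size of the shift. Without division by length, the ratios kept their direction but moved, 4 of the 6 by more than 1 SD: the log2 ratio was 2.87 for fgf12 to frs2, 8.52 for fgf12 to fgf10a, 0.69 for frs2 to fgfr4 and 4.96 for fgfr4 to fgf10a. The largest shift among the spreads was that of fgf10a with a pseudocount of 0.1, where the SD on the log2 scale was 0.85. With a minimum of 10 counts in every fish, or with counts scaled to the smallest library, 3 of the 4 transcripts were detected, and 37 of the pathway genes met the minimum of 10. Leaving out 1 fish at a time, 77 values stayed within the limits and 3 did not, all of them spreads. The SD on the log2 scale ranged from 0.22 to 0.69 for fgf10a, with the low end at 0.218 without M5, from 0.028 to 0.45 for fgfr4, with 0.0279 without M2, and from 0.18 to 0.34 for frs2, with 0.176 without M5, and for fgf12 from 0.31 to 0.45. The mean normalized counts ranged from 1020 to 1189 for fgf12, from 2.91 to 3.87 for fgf10a, from 80.2 to 97.9 for fgfr4 and from 136 to 156 for frs2. The 4 transcripts were counted in every remaining fish, and the pathway genes so counted numbered 52 or 53. With 4 fish the exact permutation test allows no p under 0.125. The depth of M1 limits the low end, where 1 fragment is worth 1.65 normalized counts. No paired analysis was possible between groups because the 5 fish form a single group, and the pairing within fish was that of transcripts.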

Other observations

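Which fish was highest was counted after the data had been seen, over the 37 pathway genes with at least 10 counts in every fish. M2 was the highest fish for 13 of them (35.1%), against 16.0% of all 11726 genes with such counts. M1 was highest for 6, M3 for 5, M4 for 7 and M5 for 6, against 17.3%, 18.7%, 18.7% and 29.3% of all genes. By role, M2 led 3 of the 10 adaptors, 3 of the 6 RAS-MAPK genes, 2 of the 4 receptors and 2 of the 6 feedback inhibitors, while M4 led 3 of the 4 target genes. These genes are not independent of each other and no test was made.

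Some targets and some inhibitors of the cascade were high in the same fish. In M1 to M5, egr1 had 492, 586, 429, 770 and 157 normalized counts and dusp6 had 105, 114, 43.3, 156 and 56.8. Like fosl1a, both were highest in M4, while egr1 was lowest in M5 and dusp6 in M3. The inhibitor spry1 was also highest in M4, at 880 normalized counts, whereas the target etv4 and the inhibitor spry4 were highest in M2. The target etv5a had 233 normalized counts in M4 and 225 in M2. Of the 6 inhibitors with at least 10 counts in every fish, 2 were highest in M4, 2 in M2, 1 in M1 and 1 in M5. Among the receptors matched by symbol, fgfr3 was highest in M4, at 0.341 TPM, and lowest in M5, at 0.0603 TPM. The receptors fgfr1a and fgfr4 were not highest in M4, with 3.01 and 0.854 TPM there, nor were fgfr2 and fgfrl1a. The secreted ligands summed to 5.41 TPM in M4, their highest, and to between 3.86 and 4.76 TPM in the other fish. A relation among these levels was not tested.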
